A study of Arabidopsis with 36 samples.

Results

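In Col-0 seedlings of Arabidopsis thaliana, 24 of the 24532 genes in the expression table fell in the root and rose in the shoot when the plants were moved to 28 °C. The genes were chosen on these values. For each gene, L is the log2 ratio of the mean RPKM plus 1 at 28 °C to the mean RPKM plus 1 at 21 °C, over 3 Col-0 libraries each, where RPKM is the number of reads on a gene scaled by its length in kilobases and by the reads in the library. A gene was included when L was at or below -0.58 in roots and at or above 0.58 in shoots and its mean in Col-0 roots at 21 °C was at least 5 RPKM. Of the 24 genes, 12 have a symbol in the annotation (GRP5, VSP1, LTP3, LTP2, KIN2, NUDT8, ADC2, CYP710A2, DHAR1, KCS2, AAP1 and LEA14) and 12 are named here by their identifier. The opposite directions in Col-0 are therefore a description and were not tested. The rule used none of the hy5-215 and chl1-5 libraries, and the tests below are on these. The rule itself was set with earlier results of these data known, and the tests share their estimate of spread with the Col-0 libraries.

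The study asked how root and shoot respond to mild warmth in the wild type Col-0, in hy5-215, a loss-of-function mutant of the light-signalling transcription factor HY5, and in chl1-5 (chl1.5 in the labels), a deletion mutant of the nitrate transporter NRT1.1. Each line is a single allele, and no complemented line was among the libraries. Seedlings of all 3 genotypes were grown for 4 days at 21 °C and then for 5 days at 21 °C or at 28 °C, and roots and shoots were collected apart. RNA-seq of 3 replicates of each genotype, organ and temperature gave 36 libraries in 12 groups, and a root replicate was a pool of about 50 roots. Because whole organs were sequenced, a lower level can be fewer cells of a type or less RNA per cell, and the data cannot tell these apart.

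Several of these genes belong to groups that are well known in stress and surface biology. Lipid transfer proteins (LTP2, LTP3) are small secreted proteins that bind lipids, and ketoacyl-CoA synthases such as KCS2 lengthen the fatty acids that go into waxes and suberin. Vegetative storage proteins (VSP1) are acid phosphatases of leaves whose transcripts rise with the wound hormone jasmonate. KIN2 is a small hydrophilic protein and LEA14 a late embryogenesis abundant protein, from groups that accumulate during cold or water loss. Arginine decarboxylase (ADC2) makes the first step towards the polyamine putrescine.

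The libraries held 61095842 to 89335791 reads in roots and 51838841 to 84655103 reads in shoots, and the least covered member had 62 reads in its lowest library in shoots (AT1G22470) and 49 in roots (GRP5). NRT1.1 had 0 to 4 reads in chl1-5 roots, against 2745 to 29013 in Col-0 roots. In the shoot libraries labelled chl1-5 it had 3715 to 6485 reads, so in shoots NRT1.1 itself does not bear out the label. The nearby gene ELP (AT1G12090), looked up after these values were seen, had 0 to 4 reads in those shoot libraries, 0 to 2 reads in chl1-5 roots at 21 °C, 4 to 113 reads in chl1-5 roots at 28 °C, and at least 8734 reads in every other library. AT1G12100, also nearby and looked up then, had 0 reads in those shoot libraries, against 43 to 110 in Col-0 shoots and 43 to 83 in hy5-215 shoots. In those shoot libraries both nearby genes were thus near 0 while NRT1.1 was not, and the reason was not tested. HY5 was at 6.34 to 8.30 RPKM in hy5-215 roots and at 24.1 to 50.3 RPKM in Col-0 roots. In shoots at 21 °C, HY5 was at 5.49 to 5.96 RPKM in hy5-215 and at 4.67 to 4.99 RPKM in Col-0. At 28 °C it was at 4.76 to 5.68 RPKM in hy5-215 shoots and at 7.93 to 8.25 RPKM in Col-0 shoots, with no overlap. Shoot and root markers were as the organ labels say: the summed level of 18 photosynthesis genes was 66561 to 92827 RPKM in shoots and 42.4 to 1230 RPKM in roots. Within Col-0 roots that sum went from 305 to 386 RPKM at 21 °C to 897 to 1230 RPKM at 28 °C, and in chl1-5 roots from 211 to 285 to 695 to 895 RPKM, whereas in hy5-215 roots it was 58.7 to 73.3 and 42.4 to 77.9 RPKM. In Col-0 shoots the summed level of 8 root hair genes was 6.43 to 6.73 RPKM at 21 °C and 3.94 to 4.23 RPKM at 28 °C, that of 9 Casparian strip genes 13.03 to 13.57 and 10.996 to 11.24 RPKM, and that of 6 root cap and meristem genes 0.748 to 0.921 and 0.612 to 0.808 RPKM. In hy5-215 shoots these sums were 6.26 to 6.70 and 4.02 to 4.35 RPKM, 26.9 to 28.9 and 9.43 to 10.4 RPKM, and 1.17 to 1.29 and 0.882 to 1.19 RPKM. In shoots labelled chl1-5 they were 4.69 to 5.20 and 2.86 to 2.91 RPKM, 13.8 to 14.5 and 7.58 to 7.90 RPKM, and 0.550 to 0.662 and 0.364 to 0.395 RPKM. In roots the Casparian strip sum was lower at 28 °C, as the members were in Col-0 and chl1-5. It was 356 to 386 RPKM at 21 °C and 269 to 298 RPKM at 28 °C in Col-0, 373 to 398 and 285 to 294 RPKM in chl1-5, and 387 to 418 and 263 to 271 RPKM in hy5-215. The root hair sums at the 2 temperatures overlapped in each genotype. The root cap and meristem sum was higher at 28 °C in each genotype with no overlap. It was 24.5 to 25.3 RPKM at 21 °C and 27.7 to 28.5 RPKM at 28 °C in Col-0, 23.5 to 24.9 and 26.7 to 28.7 RPKM in chl1-5, and 27.3 to 28.4 and 29.4 to 30.6 RPKM in hy5-215. The part of these markers in the results was not tested.

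A fall in the root and a rise in the shoot was an uncommon pair of values in Col-0. Of the 12021 genes with at least 5 RPKM in Col-0 roots at 21 °C, 650 met the root limit, and 24 of these, 3.69%, met the shoot limit as well, against 8.65% of all 12021 genes. By contrast, 206 of the 650 genes, 31.7%, had an L at or below -0.58 in both organs. A further 22 genes met both limits of L but had less than 5 RPKM in roots. The same rule was applied to the libraries of each mutant. It gave 40 genes in the libraries labelled chl1-5, of which 14 were among the 24 (58.3% of the Col-0 set and 35% of the chl1-5 set). In hy5-215 it gave 33 genes, of which 5 were among the 24 (20.8% and 15.2%). The members closest to the limits were AT2G36430 (L of -0.59 in roots and 0.61 in shoots), LEA14 (-0.74 and 0.59) and AT1G72140 (-0.85 and 0.60). Just outside were EARLI1 (-2.19 and 0.58), SLAH3 (-1.07 and 0.58) and PRN (-0.57 and 1.14), where EARLI1 and SLAH3 missed the shoot limit by less than 0.01 and PRN the root limit.

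In Col-0, L ran from -2.06 for GRP5 to -0.59 for AT2G36430 in roots, with a median of -0.94, and from 0.59 for LEA14 to 3.08 for VSP1 in shoots, with a median of 0.93. In chl1-5 roots L was below 0 for all 24 genes, with a median of -1.07, and lower than in Col-0 for 18 of them. In hy5-215 roots the median was -0.40, 6 genes had an L above 0, and 23 of the 24 genes had a higher L than in Col-0. The levels differed as well: the mean in chl1-5 roots was above that in Col-0 roots for 23 genes at 21 °C and 19 at 28 °C. In hy5-215 roots it was above that in Col-0 for 11 genes at 21 °C and 18 at 28 °C. In shoots L was above 0 for all 24 genes in both mutants, with a median of 1.12 in hy5-215 and 0.82 in the libraries labelled chl1-5. Since the Col-0 values chose the genes, these comparisons with Col-0 are a description only.

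**Figure D1:**
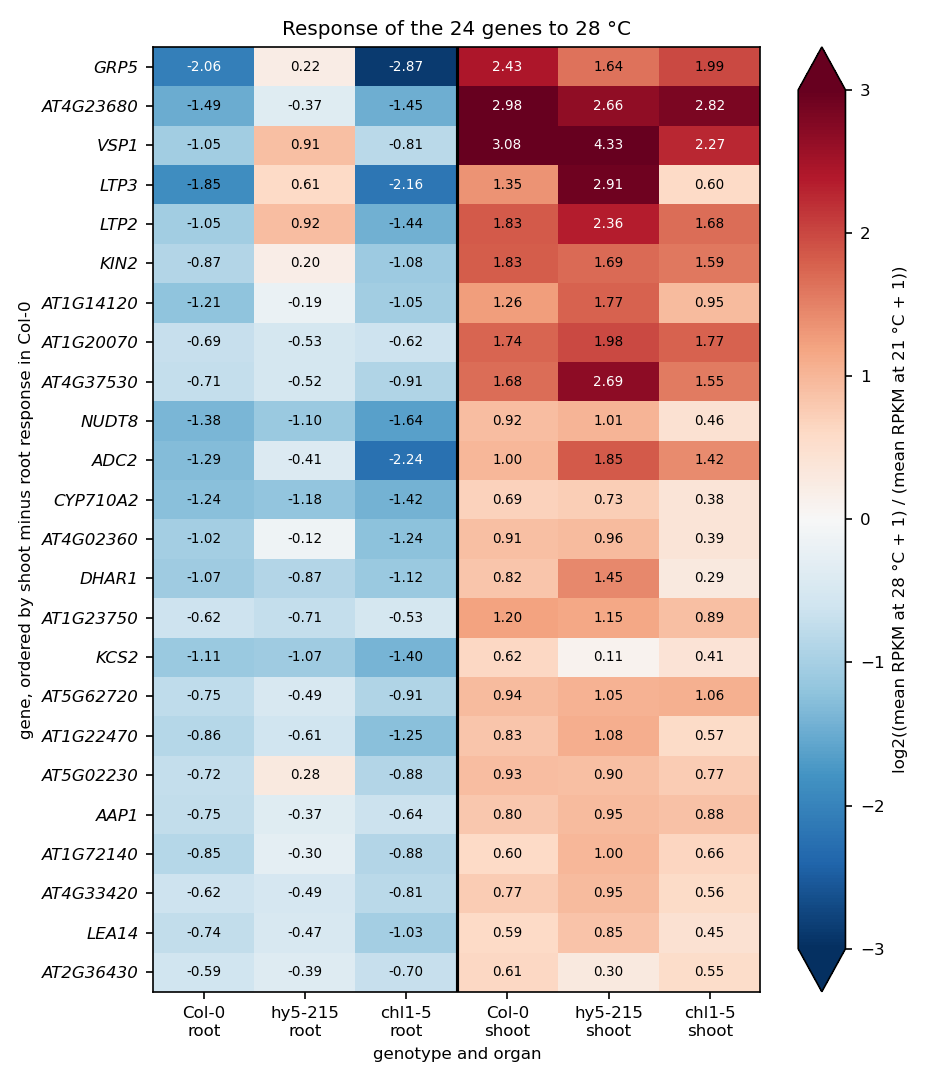
Response of each of the 24 genes (rows) to 28 °C in roots and shoots of each genotype (columns), as the log2 ratio of the mean RPKM plus 1 at 28 °C to that at 21 °C. Red is higher and blue lower at 28 °C. The Col-0 columns chose the genes; the hy5-215 root column holds 6 positive values, while chl1-5 roots hold none and the shoot columns of both mutants hold only positive ones.

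The responses of the mutants were tested with limma on log2(RPKM + 1), with p-values adjusted by Benjamini-Hochberg over all genes tested, and a gene was called when the adjusted p was under 0.05 and the log2 difference was at least 0.58 in size. Fold changes are on this log2(RPKM + 1) scale, which understates the change of low genes. All 24 genes had a mean of at least 1 RPKM in each organ and were tested. Root replicates were separate pools. For shoots the labels do not say how the replicates were kept apart, but the authors describe the 3 replicates of each organ as independent and biological. The p-values measure the spread between these samples. For VSP1 the standard deviation within a group was 0.79 to 3.62% of the mean in shoots and 14.2 to 58.85% in roots. For AT4G02360 it was 3.63 to 22.09% in shoots and 5.38 to 20.54% in roots. Small p-values in shoots can thus come with a small spread, whose cause was not tested. In chl1-5 roots, 22 of the 24 genes were called lower, where 7.06% of the 17742 genes tested were, and the median log2 difference was -1.06 against 0.04 over all genes. The other 2 were AT1G23750 (-0.53 ± 0.05, SE, adjusted p = 7.42e-08), whose change was smaller than the limit, and VSP1 (-0.67 ± 0.35, adjusted p = 0.102). In hy5-215 roots, 6 genes were called lower, where 4.07% of all genes were, and 3 were called higher, where 5.86% were, with a median of -0.40 against 0.05 over all genes. At any fold change, on the adjusted p alone, 14 of the 24 genes were lower in hy5-215 roots, where 24.5% of all genes were, 4 were higher, where 36.5% were, and 23 were lower in chl1-5 roots, where 29.1% were. In shoots, 22 genes were called higher in hy5-215, where 10.7% of 16817 genes were, and 15 in the libraries labelled chl1-5, where 8.95% were. At any fold change all 24 were higher in both, where 46.8% of all genes were higher in hy5-215 and 49.9% in the libraries labelled chl1-5. With a limit of 1 in place of 0.58, 14 genes were called lower in chl1-5 roots, where 2.68% of all genes were, 3 were called lower in hy5-215 roots, where 1.26% were, and 0 were called higher there, where 1.94% were. In shoots that limit left 16 genes in hy5-215, where 4.23% of all genes passed, and 9 in the libraries labelled chl1-5, where 2.43% did. The median log2 difference in shoots was 1.12 in hy5-215 and 0.82 in the libraries labelled chl1-5, against 0.08 and 0.10 over all genes.

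The response in the shoot was above that in the root in both mutants. In a fit of all 36 libraries this held for all 24 genes in the libraries labelled chl1-5, by 1.26 for AT2G36430 to 4.99 for GRP5. There 35.8% of 18173 genes were called higher. It held for all 24 in hy5-215 as well, by 0.61 for AT5G02230 to 3.42 for VSP1, where 32.8% of genes were called higher. NRT1.1 bore out the label in chl1-5 roots but not in the shoots labelled chl1-5, so the contrast in chl1-5 may not be between organs alone. ELP and AT1G12100 were near 0 in those shoots. The largest adjusted p among the 24 was 8.19e-07 in chl1-5 and 0.000477 in hy5-215. In hy5-215, however, the difference came with a root response near 0 for several genes, as the values by library show.

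The 2 mutants were then compared with each other, since the rule used the libraries of neither. The root response was higher in hy5-215 than in chl1-5 for 14 of the 24 genes, where 15.4% of all 17742 genes were called higher, and lower for 1, where 16% were called lower. For these differences a gene was called on the adjusted p alone. With 1 library left out, the counts ran from 12 to 17 higher and from 0 to 1 lower. The median difference over the 24 genes was 0.56 on the log2 scale, against 0.00 over all genes. The 14 genes were GRP5, VSP1, LTP3, LTP2, KIN2, AT4G37530, NUDT8, ADC2, AT4G02360, AT1G22470, AT5G02230, AT4G33420, LEA14 and AT2G36430, and their differences ran from 0.31 to 3.22. For AT1G23750 the difference was -0.18 ± 0.07 (SE, adjusted p = 0.0452), and this call was lost in 8 of the 12 fits with 1 library left out (adjusted p up to 0.11). The calls of AT2G36430 and NUDT8 were lost in 8 and 4 of the 12 (largest adjusted p of 0.0999 and 0.059). The remaining 9 genes had differences of 0.11 to 1.15 with adjusted p-values up to 0.633. The lowest adjusted p among these was that of AT4G23680, at 0.0516.

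GRP5, a glycine-rich protein gene, had the largest difference in roots. In Col-0 roots it was at 5.76, 6.78 and 9.41 RPKM at 21 °C and at 0.719, 1.07 and 1.196 RPKM at 28 °C. In chl1-5 roots it was at 31.1, 17.2 and 26.9 RPKM at 21 °C and at 1.79, 0.887 and 5.00 RPKM at 28 °C, a log2 difference of -3.003 ± 0.30 (SE, adjusted p = 2.76e-07). In hy5-215 roots it was at 34.6, 33.3 and 38.3 RPKM at 21 °C and at 42.7, 40.1 and 41.2 RPKM at 28 °C (0.22 ± 0.30, adjusted p = 0.539). All 6 hy5-215 root libraries were thus above all 6 Col-0 root libraries, and the gene did not fall there at 28 °C. The difference between the mutants was 3.22 ± 0.42 (adjusted p = 5.04e-05). In shoots GRP5 rose in all genotypes: from 19.3, 20.4 and 23.5 to 106, 126 and 122 RPKM in Col-0, from 43.6, 36.8 and 36.3 to 127, 111 and 130 RPKM in hy5-215, and from 24.6, 24.8 and 23.8 to 111, 90.5 and 98.1 RPKM in the libraries labelled chl1-5. Its shoot response was smaller in hy5-215 than in those libraries by 0.35 ± 0.12 on the log2 scale (hy5-215 minus chl1-5 of -0.35, adjusted p = 0.0319). That call was lost in 5 of the 12 fits with 1 shoot library left out, where the largest adjusted p was 0.0945.

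The lipid transfer protein genes LTP3 and LTP2 moved in opposite directions in the roots of the mutants. LTP3 in Col-0 roots went from 20.1, 21.102 and 29.6 RPKM to 5.59, 5.59 and 6.24 RPKM. In chl1-5 roots it went from 42.3, 33.8 and 42.6 to 7.29, 5.88 and 11.1 RPKM (-2.19 ± 0.16, adjusted p = 1.14e-08), and in hy5-215 roots from 28.298, 31.2 and 31.03 up to 44.4, 49.0 and 45.9 RPKM (0.61 ± 0.16, adjusted p = 0.00454). The groups at the 2 temperatures did not overlap in any genotype. LTP2 in Col-0 roots went from 23.6, 27.2 and 39.3 to 13.3, 12.98 and 15.7 RPKM, and in chl1-5 roots from 52.8, 43.2 and 52.2 to 15.6, 16.1 and 20.9 RPKM (-1.45 ± 0.15, adjusted p = 5.41e-07). In hy5-215 roots it rose from 28.8, 26.2 and 31.99 to 53.3, 62.9 and 51.2 RPKM (0.92 ± 0.15, adjusted p = 9.11e-05). The difference between the mutants was 2.80 ± 0.23 for LTP3 (adjusted p = 5.79e-07) and 2.37 ± 0.22 for LTP2 (adjusted p = 1.56e-06). The rise of LTP3 in hy5-215 roots lay close to the limit of 0.58: with size factors it was 0.56, and it was 0.56 and 0.57 without hy5-215 root replicate 1 at 21 °C and without replicate 2 at 28 °C.

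In shoots, LTP3 separated the genotypes as well. It went from 6.02, 6.66 and 5.94 to 17.398, 18.05 and 16.5 RPKM in Col-0, from 10.3, 9.85 and 10.002 to 82.7, 79.4 and 84.5 RPKM in hy5-215, and from 7.83, 8.14 and 7.70 to 12.6, 12.1 and 12.8 RPKM in the libraries labelled chl1-5. At 28 °C the 3 genotypes did not overlap. The response in hy5-215 was 2.31 ± 0.06 above that in the libraries labelled chl1-5 (adjusted p = 5.73e-15), the largest shoot difference of the 24 genes. LTP2 went from 58.5, 58.4 and 59.7 to 212, 216 and 208 RPKM in Col-0 shoots, from 64.1, 71.0 and 71.8 to 346, 381 and 345 RPKM in hy5-215 and from 62.4, 61.3 and 61.4 to 199, 206 and 195 RPKM in the libraries labelled chl1-5, with a difference between the mutants of 0.67 ± 0.06 (adjusted p = 4.27e-08). Of the 9 genes named as lipid transfer proteins in the annotation, 6 were tested in roots. Counting LTP2 and LTP3, 5 of these were called lower in chl1-5, where 7.06% of all genes were, and 0 higher. In hy5-215 0 were called lower and 3 higher, where 5.86% of all genes were called higher. The response was higher in hy5-215 than in chl1-5 for 5 of the 6, where 15.4% of all genes were called higher.

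**Figure D2:**
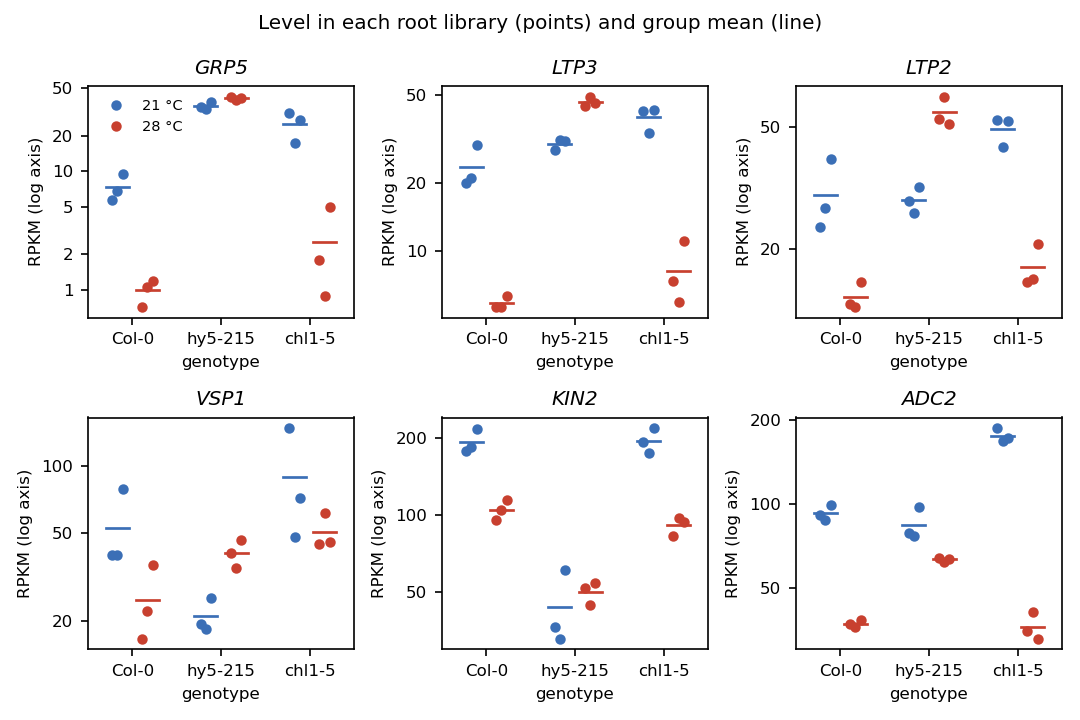
RPKM (log axis) of 6 of the genes in each root library, by genotype, at 21 °C (blue) and 28 °C (red); each point is 1 library and each line the mean of 3. GRP5, LTP3 and LTP2 are lower at 28 °C in Col-0 and chl1-5 and not in hy5-215, KIN2 starts at 33.1 to 61.4 RPKM in hy5-215 against 174 to 218 RPKM in chl1-5, and ADC2 in chl1-5 goes from 168 to 187 RPKM down to 33.1 to 41.1 RPKM.

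VSP1 was the member on the jasmonate list. In Col-0 roots it was at 39.7, 39.95 and 78.8 RPKM at 21 °C and at 16.7, 22.4 and 35.8 RPKM at 28 °C, and in chl1-5 roots at 149, 47.8 and 72.1 RPKM and at 44.7, 61.9 and 45.4 RPKM. The chl1-5 groups overlapped and the fall was not called (-0.67 ± 0.35, adjusted p = 0.102), and with 1 library left out it ran from -0.23 without replicate 1 at 21 °C (adjusted p = 0.542) to -1.03 without replicate 2 at 21 °C (adjusted p = 0.0151). In hy5-215 roots VSP1 rose from 19.4, 18.4 and 25.6 to 40.5, 34.8 and 46.3 RPKM (0.91 ± 0.35, adjusted p = 0.0326), a call that was lost in 4 of the 6 fits with 1 library left out, where the adjusted p was up to 0.0954. The difference between the mutants of 1.58 ± 0.49 (adjusted p = 0.0233) was lost in 5 of the 12 such fits (largest adjusted p = 0.0561). In shoots the replicates lay close together: VSP1 went from 12.8, 12.5 and 12.8 to 119, 110 and 116 RPKM in Col-0, from 22.3, 22.8 and 22.1 to 468, 473 and 466 RPKM in hy5-215, and from 22.7, 22.3 and 21.7 to 110, 112 and 110 RPKM in the libraries labelled chl1-5. The shoot response was 4.33 ± 0.03 in hy5-215, the largest of the 24 genes in either organ, and it was 2.06 ± 0.04 above that in the libraries labelled chl1-5 (adjusted p = 1.8e-16).

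The jasmonate list has 16 genes. Of the 10 that were tested in roots, 8 were called higher and 0 lower in hy5-215, with a median log2 difference of 0.93, where 5.86% of all genes were called higher. In chl1-5, 1 was called higher, where 8.33% of all genes were, and 0 lower, with a median of 0.03. The gene called in chl1-5 was VSP2, the neighbour of VSP1 on the chromosome, which rose by 1.28 ± 0.39 there (adjusted p = 0.00827) and by 2.46 ± 0.39 in hy5-215 (adjusted p = 5.51e-05). The response was higher in hy5-215 than in chl1-5 for 9 of the 10, where 15.4% of all genes were called higher. Among them were JAZ1 (1.38 ± 0.12) and JAZ10 (1.36 ± 0.16), repressors of jasmonate signalling, and AOS (0.82 ± 0.11), an enzyme of jasmonate synthesis. JAZ1, JAZ10 and AOS each had an adjusted p of at most 8.4e-05. In shoots, 13 of the 15 tested were called higher in hy5-215, where 10.7% of all genes were. In the libraries labelled chl1-5 it was 11, where 8.95% of all genes were called higher, and none was called lower in either. VSP1 and VSP2 are similar in sequence, and how reads that match both were counted was not stated.

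KIN2 was the member on the list of cold, drought and abscisic acid genes, and its level was lowest in hy5-215 roots. At 21 °C it was at 177, 184 and 217 RPKM in Col-0 roots, at 193, 174 and 218 RPKM in chl1-5 and at 36.8, 33.1 and 61.4 RPKM in hy5-215. At 28 °C it was at 96.0, 105 and 114 RPKM in Col-0, at 82.9, 97.4 and 94.1 RPKM in chl1-5 and at 52.0, 44.7 and 54.2 RPKM in hy5-215. The hy5-215 roots were below all others at both temperatures, and their groups at 21 and 28 °C overlapped. The response was -1.08 ± 0.17 in chl1-5 (adjusted p = 2.83e-05) and 0.25 ± 0.17 in hy5-215 (adjusted p = 0.21), and the difference was 1.33 ± 0.23 (adjusted p = 0.000644). The hy5-215 value depended on single libraries: it was 0.08 without replicate 2 at 21 °C (adjusted p = 0.711) and 0.51 without replicate 3 at 21 °C (adjusted p = 0.00138), in both cases short of the limit. In hy5-215 shoots KIN2 went from 53.1, 55.3 and 55.1 to 182, 180 and 174 RPKM, and in the libraries labelled chl1-5 from 44.3, 43.4 and 45.1 to 132, 139 and 134 RPKM, responses of 1.69 ± 0.03 and 1.59 ± 0.03. Their difference of 0.10 ± 0.04 (adjusted p = 0.0343) was lost in 7 of the 12 fits with 1 shoot library left out, where the largest adjusted p was 0.0883.

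The list has 18 genes. Of the 12 genes tested in roots, KIN2 included, 10 were called lower and 1 higher in chl1-5, with a median of -1.72, and 8 lower and 0 higher in hy5-215, with a median of -0.92, where 7.06% and 4.07% of all genes were called lower. KIN1, the neighbour of KIN2, fell by 2.41 ± 0.22 on the log2 scale in chl1-5 roots (adjusted p = 1.2e-07) and by 2.15 ± 0.22 in hy5-215 roots (adjusted p = 7.67e-07), and its L in Col-0 was -2.45 in roots and -1.17 in shoots. Unlike KIN2, it was thus lower at 28 °C in Col-0 shoots too. KIN1 and KIN2 are close copies whose reads may have been split between them. LEA14 fell in chl1-5 roots from 145, 149 and 161 to 71.4, 79.3 and 71.0 RPKM (-1.03 ± 0.07, adjusted p = 2.36e-09). In hy5-215 roots it went from 111, 110 and 122 to 85.5, 79.6 and 81.3 RPKM (-0.47 ± 0.07), and the difference was 0.56 ± 0.09 (adjusted p = 0.000419).

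ADC2 had the fall with the smallest adjusted p among the 24 genes in chl1-5 roots. It went from 187, 168 and 172 RPKM to 35.1, 41.1 and 33.1 RPKM there (-2.25 ± 0.08, adjusted p = 6.78e-12), from 91.6, 88.2 and 99.3 to 37.4, 36.3 and 38.7 RPKM in Col-0 roots, and from 79.1, 77.2 and 97.5 to 64.4, 62.4 and 63.9 RPKM in hy5-215 roots (-0.40 ± 0.08, adjusted p = 0.00066). The chl1-5 roots were thus highest at 21 °C and did not stand above Col-0 at 28 °C, where hy5-215 was highest. The difference between the mutants was 1.85 ± 0.12 (adjusted p = 5.72e-08). In shoots ADC2 was the most abundant of the 24 genes per kilobase of gene span in Col-0 at 21 °C, with 185, 185 and 190 RPKM there and 378, 376 and 371 RPKM at 28 °C. It went from 139, 148 and 143 to 511, 528 and 517 RPKM in hy5-215 and from 148, 148 and 146 to 400, 399 and 389 RPKM in the libraries labelled chl1-5, a difference in response of 0.43 ± 0.03 (adjusted p = 1.004e-08).

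**Figure D3:**
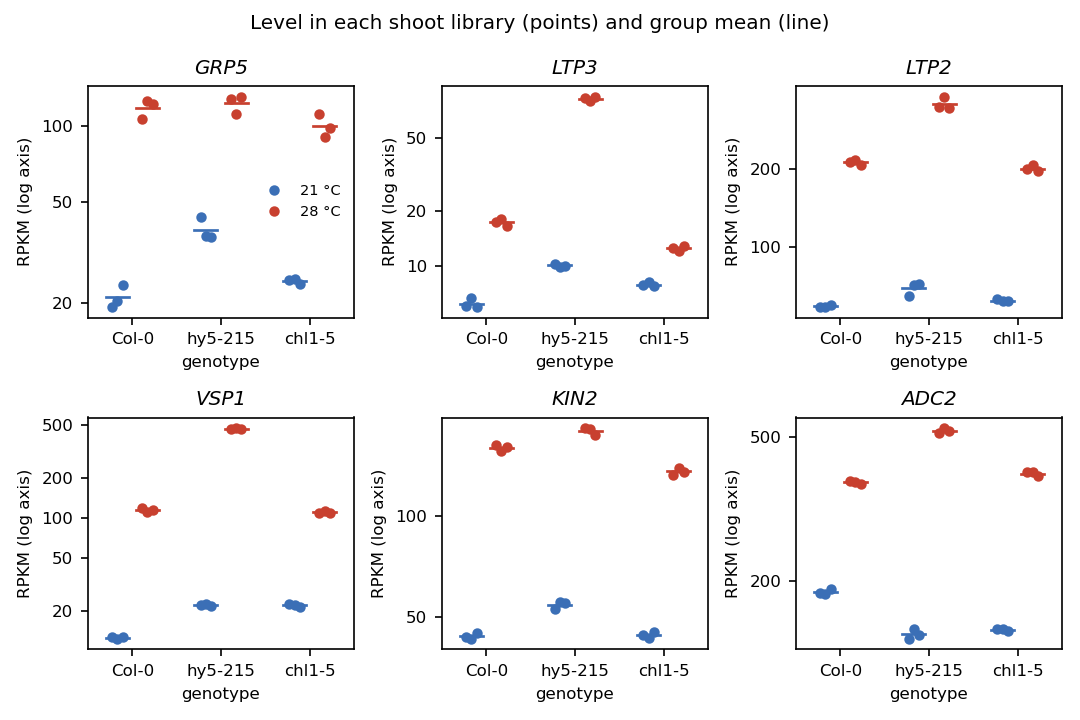
RPKM (log axis) of the same 6 genes in each shoot library, by genotype, at 21 °C (blue) and 28 °C (red); each point is 1 library and each line the mean of 3. All 6 genes are higher at 28 °C in every genotype with no overlap, and VSP1 and LTP3 reach 466 to 473 RPKM and 79.4 to 84.5 RPKM in hy5-215 against 110 to 112 RPKM and 12.1 to 12.8 RPKM in the libraries labelled chl1-5.

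In hy5-215 roots 6 genes were called lower, and 5 of these were called lower in chl1-5 roots too. NUDT8, a gene of the Nudix hydrolase family, went from 15.3, 14.4 and 16.2 to 4.36, 3.63 and 4.71 RPKM in chl1-5 roots (-1.64 ± 0.12, adjusted p = 8.78e-09) and from 15.4, 12.7 and 11.1 to 4.84, 6.61 and 5.24 RPKM in hy5-215 roots (-1.10 ± 0.12, adjusted p = 1.33e-06). The sterol desaturase gene CYP710A2 went from 23.6, 14.1 and 17.7 to 5.33, 7.66 and 5.84 RPKM in chl1-5 roots (-1.40 ± 0.21) and from 7.05, 6.27 and 9.73 to 2.45, 3.52 and 2.56 RPKM in hy5-215 roots (-1.17 ± 0.21). DHAR1, which recycles ascorbate, fell by 1.11 ± 0.10 on the log2 scale in chl1-5 roots and by 0.87 ± 0.10 in hy5-215 roots. The suberin gene KCS2 fell by 1.41 ± 0.12 in chl1-5 roots and by 1.06 ± 0.12 in hy5-215 roots, AT1G23750, which was not called in chl1-5 roots (-0.53 ± 0.05), by 0.71 ± 0.05 in hy5-215 roots, and AT1G22470 by 1.24 ± 0.10 in chl1-5 roots and by 0.60 ± 0.10 in hy5-215 roots. The fall in hy5-215 roots came to log2 differences of -0.53 and -0.57, short of the limit, without hy5-215 root replicate 1 at 21 °C and without replicate 3 at 28 °C. The adjusted p of each of the 6 in hy5-215 roots was at most 0.000165. For CYP710A2, DHAR1 and KCS2 the difference between the mutants was 0.24 ± 0.29, 0.24 ± 0.14 and 0.35 ± 0.16, with adjusted p-values of 0.569, 0.196 and 0.117, and no difference was called. KCS2 was called without hy5-215 root replicate 3 at 21 °C (0.50, adjusted p = 0.0141), without replicate 2 of hy5-215 at 28 °C or without replicate 2 of chl1-5 at 28 °C, and DHAR1 without replicate 2 of chl1-5 at 21 °C (0.37, adjusted p = 0.0281). KCS2 lies in a suberin list of which all 15 genes were tested in roots. Of these, 14 were called lower in chl1-5, where 7.06% of all genes were, and 11 in hy5-215, where 4.07% were. None was called higher, and 11 had a higher response in hy5-215 than in chl1-5, where 15.4% of all genes did.

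DHAR1 and KCS2 parted in the shoot. DHAR1 went from 210, 214 and 208 to 571, 590 and 565 RPKM in hy5-215 shoots (1.45 ± 0.03, adjusted p = 2.62e-17) and from 207, 202 and 207 to 243, 255 and 254 RPKM in the libraries labelled chl1-5 (0.29 ± 0.03, adjusted p = 1.61e-07), a difference of 1.16 ± 0.04 (adjusted p = 1.19e-12). Col-0 was lowest at 21 °C, with 165, 170 and 162 RPKM, and lay between the mutants at 28 °C, with 310, 284 and 288 RPKM. KCS2 went from 4.60, 4.20 and 4.60 to 4.69, 5.25 and 4.72 RPKM in hy5-215 shoots (0.11 ± 0.04, adjusted p = 0.028) and from 3.098, 3.06 and 3.31 to 4.48, 4.59 and 4.53 RPKM in the libraries labelled chl1-5 (0.41 ± 0.04). It was 1 of the 2 genes not called in hy5-215 shoots. The other was AT2G36430, at 12.04, 11.1 and 11.9 RPKM and then 14.1, 14.5 and 15.1 RPKM (0.30 ± 0.04, adjusted p = 7.56e-06). Of the 8 suberin genes tested in shoots, 3 were called lower and 0 higher in each mutant, and KCS2 was called in neither. Over all genes, 7.21% were called lower in hy5-215 shoots and 7.27% in the libraries labelled chl1-5.

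AAP1, a permease that takes up amino acids, went from 7.35, 6.37 and 7.06 to 3.57, 4.86 and 3.83 RPKM in chl1-5 roots (-0.65 ± 0.10, adjusted p = 2.46e-05) and from 5.78, 5.18 and 5.57 to 3.80, 4.37 and 3.99 RPKM in hy5-215 roots (-0.37 ± 0.10, adjusted p = 0.00421). Its shoot responses were 0.95 ± 0.03 and 0.88 ± 0.03 in hy5-215 and the libraries labelled chl1-5. AAP1 and AT5G62720 were the 2 genes for which the shoot responses of the mutants were not called different (0.08 ± 0.04, adjusted p = 0.142, and -0.01 ± 0.05, adjusted p = 0.925).

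Among the genes known here only by an identifier, AT5G02230 fell in chl1-5 roots and was not called in hy5-215 roots. It was at 26.3, 25.2 and 29.9 RPKM in hy5-215 roots at 21 °C and at 32.1, 36.6 and 31.05 RPKM at 28 °C (0.28 ± 0.10, adjusted p = 0.0186, and up to 0.0913 with 1 library left out), and went from 28.6, 24.5 and 26.6 to 13.2, 14.9 and 13.9 RPKM in chl1-5 roots (-0.88 ± 0.10, adjusted p = 8.58e-07), a difference of 1.16 ± 0.14 (adjusted p = 1.76e-05). AT4G02360 was at 5.49, 6.38 and 6.62 and then 5.50, 5.34 and 5.93 RPKM in hy5-215 roots, and fell from 11.98, 8.23 and 9.88 to 3.18, 3.97 and 3.91 RPKM in chl1-5 roots, a difference of 1.11 ± 0.17 (adjusted p = 0.000228). AT4G33420 was higher in hy5-215 roots than in any other root library, with 127, 132 and 141 RPKM at 21 °C and 94.5, 95.3 and 93.5 RPKM at 28 °C, against 65.3, 70.1 and 68.2 and then 42.8, 41.0 and 47.7 RPKM in Col-0. Its root response was -0.49 ± 0.05 in hy5-215 and -0.81 ± 0.05 in chl1-5.

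AT4G23680 stood close to GRP5 in the Col-0 contrast between the organs. In Col-0 roots it was at 89.8, 108 and 146 RPKM at 21 °C and at 28.7, 39.3 and 51.9 RPKM at 28 °C, and in Col-0 shoots at 34.8, 33.8 and 35.1 RPKM and then 278, 281 and 279 RPKM. In hy5-215 roots it was at 36.6, 30.1 and 71.8 RPKM and then at 38.2, 27.8 and 40.8 RPKM (-0.28 ± 0.30, adjusted p = 0.433), and in chl1-5 roots it went from 180, 99.0 and 138 to 47.9, 62.9 and 39.5 RPKM (-1.44 ± 0.30, adjusted p = 0.000576). The difference of 1.15 ± 0.43 was not called (adjusted p = 0.0516), but was without hy5-215 root replicate 3 at 21 °C (1.52, adjusted p = 0.00737). In shoots AT4G23680 rose by 2.66 ± 0.03 in hy5-215 and by 2.82 ± 0.03 in the libraries labelled chl1-5, a difference of -0.17 ± 0.04 (adjusted p = 0.00466). AT1G20070, another gene with a large contrast between the organs, went from 26.9, 22.6 and 24.3 to 15.4, 16.6 and 14.9 RPKM in chl1-5 roots (-0.62 ± 0.11, adjusted p = 0.000125) and from 22.2, 21.8 and 31.6 to 16.6, 19.01 and 15.9 RPKM in hy5-215 roots (-0.51 ± 0.11, adjusted p = 0.000872). Its shoot responses were 1.98 ± 0.04 in hy5-215 and 1.77 ± 0.04 in the libraries labelled chl1-5. AT1G14120 resembled AT4G23680 in roots, with 22.8, 20.8 and 34.99 and then 22.5, 20.1 and 25.7 RPKM in hy5-215 (-0.16 ± 0.25, adjusted p = 0.588) and 106, 54.6 and 78.5 and then 35.5, 45.2 and 33.1 RPKM in chl1-5 (-1.02 ± 0.25, adjusted p = 0.002).

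The shoot responses of the mutants differed for 22 of the 24 genes. The response was higher in hy5-215 for 18, where 20.2% of all 16817 genes were called higher, and lower for 4 (GRP5, AT4G23680, KCS2 and AT2G36430), where 21.8% were called lower. With 1 library left out, the counts ran from 16 to 18 higher and from 3 to 4 lower. The difference of AT5G02230 (0.13 ± 0.04, adjusted p = 0.0261) then reached an adjusted p of 0.0639. The median difference was 0.37, against -0.02 over all genes. The 18 differences ran from 0.10 for KIN2 to 2.31 for LTP3. AT4G37530 had a shoot response of 2.69 ± 0.04 in hy5-215, from 4.11, 3.64 and 3.91 to 30.9, 29.3 and 31.4 RPKM, and of 1.55 ± 0.04 in the libraries labelled chl1-5, from 4.82, 4.804 and 4.55 to 16.5, 14.8 and 15.96 RPKM. That difference of 1.15 ± 0.06 had an adjusted p of 1.45e-10. Called differences had opposite signs in root and shoot for 3 genes, GRP5 (3.22 and -0.35), AT2G36430 (0.31 and -0.25) and AT1G23750 (-0.18 and 0.26). Each pair held a call that was lost in some fits with 1 library left out. The adjusted p then reached 0.0945 for GRP5 in shoots, 0.0999 for AT2G36430 in roots and 0.11 for AT1G23750 in roots.

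**Figure D4:**
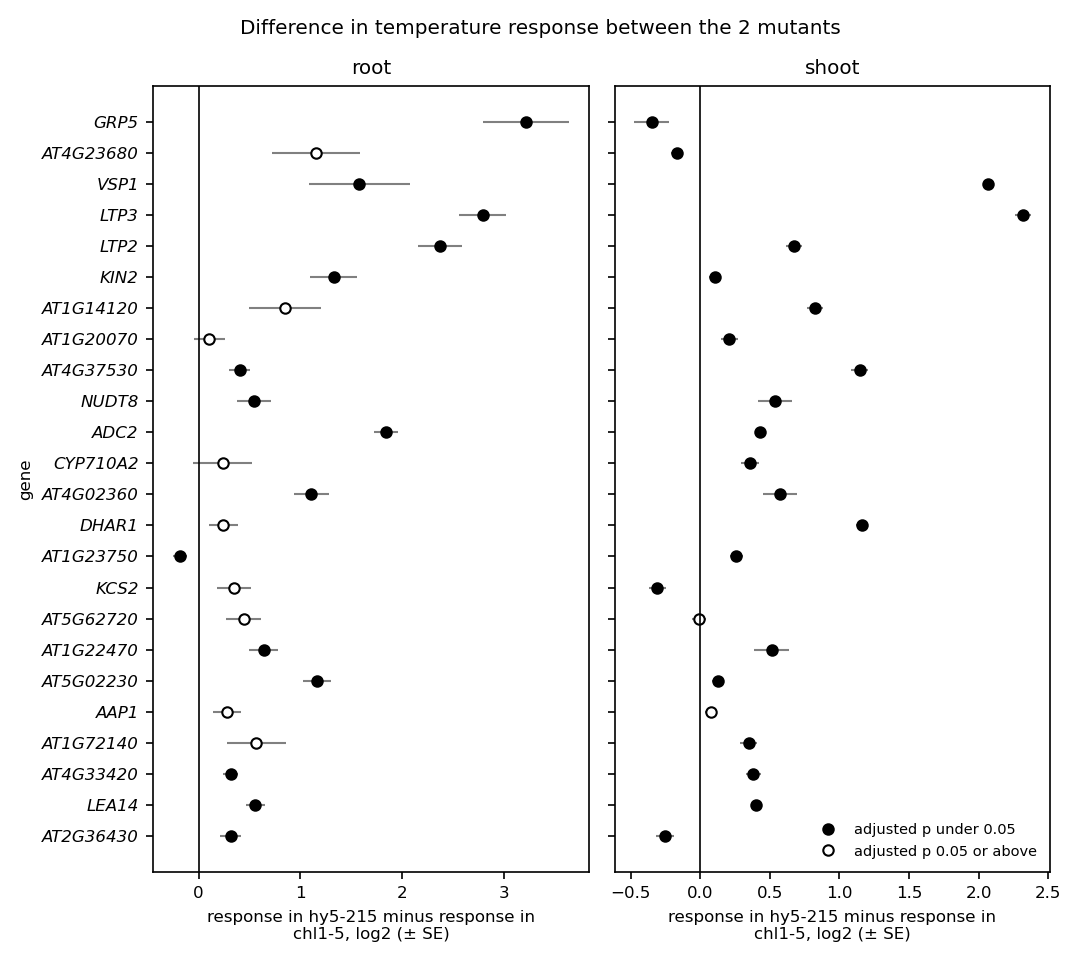
Response to 28 °C in hy5-215 minus that in chl1-5 (log2 scale, point, with its SE as a bar) for each of the 24 genes in roots (left) and shoots (right); filled points passed the adjusted p of 0.05. In roots 14 filled points lie right of 0 and 1 left of it, in shoots 18 and 4.

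The organ in which a gene was more abundant changed from root at 21 °C to shoot at 28 °C for 12 of the 24 genes in chl1-5 and in Col-0 and for 8 in hy5-215. Over all 18173 genes it did so for 5.31% in chl1-5, 3.91% in Col-0 and 3.64% in hy5-215. In chl1-5, 20 of the 24 genes had a higher mean RPKM in the root than in the shoot at 21 °C and 8 at 28 °C. In hy5-215 the counts were 14 and 6, and in Col-0, whose values chose the genes, 17 and 5, while over all genes between 71.2% and 73.7% were higher in the root in each genotype and temperature. The median log2 ratio of root to shoot went from 1.86 to -0.53 in chl1-5 and from 0.86 to -1.32 in hy5-215. The ratio sets libraries of different organs side by side without any scaling between them beyond the number of reads in each library. For chl1-5 it also sets roots in which NRT1.1 bore out the label beside shoots in which it did not.

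The 24 genes were spread over the 5 chromosomes (9, 3, 1, 5 and 6 genes on chromosomes 1 to 5), and no pair of them were direct neighbours. Of the 45 directly neighbouring protein-coding genes with values, 0 met both limits of L in Col-0, 4 met the root limit and 4 the shoot limit. Close relatives next door did not meet the rule. LP1, a lipid transfer protein gene beside LTP2, went from 12.8 to 2.88 RPKM in Col-0 roots and from 980 to 1144 RPKM in shoots, and LTP4, beside LTP3, was at 0.111 and 0.380 RPKM in roots. CYP710A1, beside CYP710A2, had an L of -0.42 in roots and 0.12 in shoots. In the annotation, KCS2 and AT1G20070 overlap a long non-coding gene over most of their span and AT4G33420 overlaps BAK1 at its end. Whether the counting used strand was not stated, so their values may hold reads of those genes.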

How the data were processed

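The authors deposited 1 table of RPKM values (reads scaled by gene length in kilobases and by library size) for all 36 libraries; the submitters' processing notes name STAR 2.7.0a, edgeR 3.36.0 and the build TAIR10, and the strand setting and the treatment of reads that match several genes are not given in the sources used here. Whole reads were recovered from the RPKM steps for 100% of genes above 0, which gave the depths, and for 99.9% of genes the length used equals the gene's span in the RefSeq annotation of TAIR10.1, used here for symbols, neighbours and overlaps only. Samples were grouped by genotype, organ and temperature. Genes whose mean reached 1 RPKM were tested on log2(RPKM + 1) with limma 3.58.1 (R 4.3.3; empirical Bayes with trend), in roots and shoots apart (18 libraries each) and, for shoot minus root, in all 36. P-values were adjusted by Benjamini-Hochberg over all genes tested. The scripts were tested on simulated data. The 24 genes, the 26 gene lists and the 21 families were chosen with earlier results of these data known. Named with values were the 10 members with the largest shoot minus root L, those on a list, the 5 largest and 5 smallest called differences between the mutants in each organ, and the genes nearest the limits. Outside that rule, and after their values were seen, AAP1, CYP710A2 and more values of LEA14 were added for their known roles, AT5G02230 and AT4G02360 for their root difference, and AT1G22470 and AT5G62720 with the counts they belong to. Deviations from the group means of libraries with the same replicate number were correlated between temperatures; only in hy5-215 roots was the correlation over 0.1 for each number (0.158, 0.137 and 0.208). Of the lists, 3 hold a member (jasmonate; cold, drought and abscisic acid; suberin) and 23 hold none. A planned count of promoter motifs was not run, as no promoter sequence was used here.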

Additional observations from a re-analysis of the deposited data

Results flagged for a closer look

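Tested directly against each other, the mutants differed in their response to 28 °C for 15 of the 24 genes in roots and 22 in shoots. In roots 14 were higher in hy5-215, where 15.4% of all genes were, and 1 lower, where 16% were. In shoots 18 were higher, where 20.2% of all genes were, and 4 lower, where 21.8% were. Shoot and root differed for 24 in hy5-215 and 24 in the libraries labelled chl1-5, where NRT1.1 bore out the label in roots only. All 24 had the higher response in the shoot in both. Of all genes, 32.8% were called higher there in hy5-215 and 35.8% in the libraries labelled chl1-5. The root differences above 1 on the log2 scale (hy5-215 minus chl1-5) were those of GRP5 (3.22), LTP3 (2.80), LTP2 (2.37), ADC2 (1.85), VSP1 (1.58), KIN2 (1.33), AT5G02230 (1.16) and AT4G02360 (1.11). In shoots they were those of LTP3 (2.31), VSP1 (2.06), DHAR1 (1.16) and AT4G37530 (1.15). Groups of 3 libraries were not tested for single outlying libraries.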

How the results depend on the processing

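Over the named genes, 2484 of 2601 values under another setting kept their direction and side of the threshold, 75 lost the call, 36 gained one and 6 turned sign, none of the 6 a called value. With a limit of 1 on the log2 scale, 14 members (2.68% of all genes) were called lower in chl1-5 roots, 9 (2.43%) higher in shoots labelled chl1-5, and 0 (1.94%) higher and 3 (1.26%) lower in hy5-215 roots. With no limit, 24 (49.9%) were higher in shoots labelled chl1-5 and 14 (24.5%) lower in hy5-215 roots. The 1 gene with a lower root response in hy5-215 than in chl1-5 became 0 with quantile normalization, size factors or no trend. The rule gave 37 genes at a limit of 0.5 on L, 7 at 1, 42 at a root minimum of 1 RPKM and 15 at 10 RPKM. With 1 library left out, counts ran from 1 to 3 (higher in hy5-215 roots), from 12 to 17 (higher root difference) and from 0 to 1 (lower root difference). In those fits AT4G23680 and AT1G14120 in hy5-215 roots ran from -0.534 to 0.0800 and from -0.306 to 0.0574. The AT5G62720 shoot difference ran from -0.0483 to 0.0307 (0.0180 with size factors). The causes were not tested. A block on the replicate number within hy5-215 roots, chosen after seeing the data, left 3 members called higher and 6 lower and changed no call there. In the other groups the samples shared only a number; with a replicate block over all libraries of an organ, 17 members rather than 18 had a higher shoot difference, AT4G23680 gained a root difference (adjusted p = 0.0423), and AT2G36430 in roots (0.0512) and KIN2 in shoots (0.0503) lost theirs. Promoter motifs were not run. The lowest member had 49 reads, and 3 replicates a group limit the precision.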

Other observations

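In roots 1 library of a group often held the highest value for most of the 24 genes. Replicate 3 held the highest value of the 3 libraries for 18 of the 24 genes in Col-0 at 21 °C, for 19 in Col-0 at 28 °C and for 17 in hy5-215 at 21 °C. In chl1-5 at 21 °C replicate 1 was highest for 14 genes, and at 28 °C replicate 2 was for 17 and replicate 3 for 7. These are counts over genes of the same libraries, and no cause was tested.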
